A study of Mus musculus with 4 samples.

Results

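The network around the transcription factor Myc was followed across 4 arrays of mouse CH10T1/2 cells as 10 genes: Myc and Mycn, the partners Max and Mlx, the antagonists Mnt, Mxd1, Mxi1, Mxd3 and Mxd4, and Odc1, a gene known as a direct target of Myc. They were taken by gene symbol from the platform annotation, which gave 22 probe sets, and they make up 10 of the 12393 genes with a probe set of their own. The set was chosen from signals that had already shown a large difference in Myc between the cell lines, so every value of a member in that difference is a description, with no test. Of the 10 genes, 8 had a mean signal at or above the filter used here (the median over all genes, at a signal of 62.6), while Mycn and Mxd1 lay below it.

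CH10T1/2 is an embryonic fibroblast line. Cells were stably transfected with PTHR1, the receptor for PTH and PTHrP, either as the R150C variant, which was found in enchondromas (benign cartilage tumours), or as the wild type (WT). The groups were R150C cells with PTHrP, R150C cells with carrier, WT cells with PTHrP and WT controls, with 1 array each. All cells were kept in medium without serum overnight, and PTHrP was given at 1e-07 M for 1 h. The label of the WT control array names no carrier, which for this group comes from the text of the series. Each receptor was carried by 1 transfected line, so the receptor and the line cannot be told apart, and the endogenous genes of the host line are present in all 4 groups.

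Myc is a basic helix-loop-helix leucine zipper protein that binds DNA as a dimer with Max, at a short palindrome called the E-box, and is best known for raising ribosome biogenesis, nucleotide synthesis and polyamine synthesis. Mxd proteins, Mxi1 and Mnt also dimerise with Max, bind the same sites and recruit the Sin3 corepressor, so that the balance between Myc and its antagonists is set by competition for Max. Mlx is a Max-like protein that pairs with Mnt, with some Mxd proteins and with the glucose sensors Mlxip and Mlxipl. Myc itself is an early response gene, whose RNA is known to be short-lived and to rise within hours of growth factor treatment in fibroblasts.

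Promoters of the members were read in the RefSeq table (assembly GRCm38.p6), because the network is known to act on its own genes through E-boxes. Each window ran from 250 bases before to 50 bases after a promoter start listed there. The table matched 9 of the 10 members, all but Myc. The palindrome CACGTG was found in 4 of the 9, against 7.15% of all 32851 promoters in the table and 8.09% of its 27025 genes. The related form CACGCG, read on both strands (as CACGCG or CGCGTG), was found in the promoter of Odc1 only among the 9, with 2 matches, against 9.27% of all promoters. No member held both forms, so no match of one overlapped a match of the other. Each stretch below is written 5′ to 3′ on the strand of the gene, with the motif in capitals, and shows the bases around the match.
Max, chr12:76962234-76962263, minus strand: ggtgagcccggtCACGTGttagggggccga
Mlx, chr11:101087238-101087267, plus strand: ggtgggttggatCACGTGactgagcctcgc
Mnt, chr11:74830789-74830818, plus strand: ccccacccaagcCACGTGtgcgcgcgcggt
Mxd4, chr5:34187912-34187941, minus strand: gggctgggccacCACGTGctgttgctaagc
Odc1, first match, chr12:17544681-17544710, plus strand: ggtgatgtggtgCGCGTGcgcaggcctgcc
Odc1, second match, chr12:17544760-17544789, plus strand: cgggtgggtgggCACGCGctgcgccccgcc
The motif began at position -3 from the promoter start in Max, -40 in Mlx, -123 in Mnt and -219 in Mxd4, and at -180 and -101 in Odc1. The gene spans annotated in the same build begin elsewhere than these promoter starts in Max, Mlx, Mnt and Odc1. By those spans the motif lay within the gene in Max and Mlx, across its edge in Mnt, and outside it in Mxd4 and Odc1. These letters were not found in the windows of Mycn, Mxd1, Mxi1 and Mxd3. A match describes the sequence and is no evidence of binding in these cells.

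The deposited values are linear fluorescence signals, scaled so that the trimmed mean was 150.1 on every array. Signals are given as deposited. A difference is between values of log2(signal + 16), once each array had been centred on the median of the 6197 genes at or above the filter. With 1 array per group, the spread between 2 arrays was estimated from how far genes departed from additivity of line and treatment, which gave an SD of 0.25 on the log2 scale. It contains any true difference in response between the lines. Among fibroblast markers, 8 of the 9 measured were above the filter, with summed signals of 29105.3 to 37999.2 over the arrays, while 2 of 5 cartilage markers (Col2a1 and Sox9), 2 of 3 fat markers (Fabp4 and Pparg), 0 of 5 skeletal muscle markers, 0 of 4 endothelial markers, 1 of 4 epithelial markers and 2 of 5 macrophage and blood markers passed it. Ptprc, which marks blood cells, had a signal of at most 16.3. Col2a1, a cartilage collagen, was at 1153.9 and 1481.0 in R150C cells (PTHrP and control) and at 1384.9 and 1105.9 in WT cells, while the cartilage markers Acan, Matn1 and Col9a1 had no signal above 41.7. The ratio of the 3′ to the 5′ probe set of Actb, a measure of RNA and label quality, was 2.31 and 2.13 in R150C cells, against 2.39 and 1.43 in WT cells (PTHrP and control each time). The same ratio for Gapdh was 1.213 and 0.991 in R150C cells, against 1.171 and 0.845 in WT cells. Both ratios were higher with PTHrP in both lines. Their part in the results was not tested.

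Myc was far higher in the R150C line than in the WT line in both media. Its signal was 473.0 with PTHrP and 529.9 in control medium in R150C cells, against 58.8 with PTHrP and 90.7 in control medium in WT cells. Both R150C arrays stood well above both WT arrays, and the groups did not overlap. The signal ratio of R150C to WT cells was 8.04 under PTHrP and 5.84 in control medium. On the log2 scale the differences were 2.69 and 2.32, the 10th and 16th highest of 6197 genes. Within its array, Myc lay at the 90.1 and 91.3 percentile of probe set signals in R150C cells and at the 55.5 and 61.7 percentile in WT cells (PTHrP and control). Myc has 1 probe set on this array, so no other probe set measured the same gene.

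Mycn, the relative of Myc known from the embryo and from neuroblastoma, stayed below the filter on all 3 of its probe sets. The brightest by mean log2 signal had 8.3 and 8.4 in R150C cells, against 9.2 and 11.9 in WT cells (PTHrP and control). The highest value of any Mycn probe set on any array was 21.0. At such signals no difference between the groups was measurable.

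**Figure D1:**
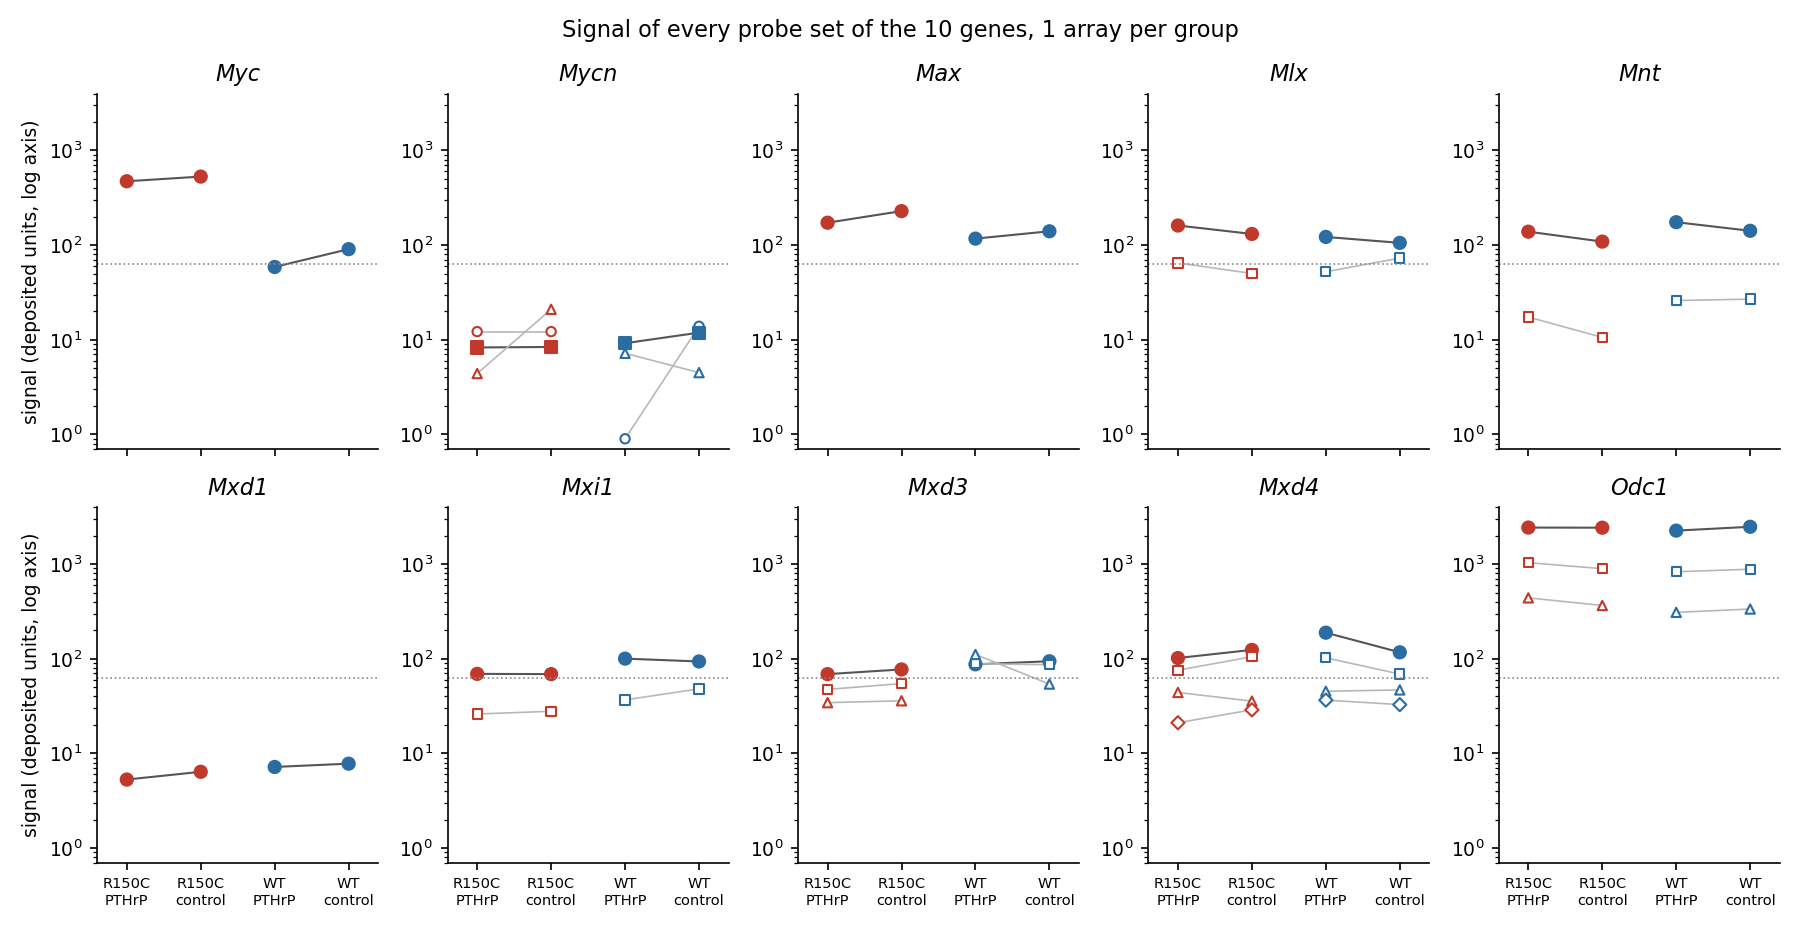
Signal of each member on the 4 arrays (log axis, arbitrary fluorescence units), with R150C arrays left of WT arrays and PTHrP left of control; filled symbols and dark lines are the probe set that stands for the gene, open symbols and pale lines its other probe sets, and the dotted line marks the filter at 62.6. Myc sits at 473.0 and 529.9 in R150C cells and at 58.8 and 90.7 in WT cells. Odc1 stays between 2259.7 and 2481.3 on the probe set that stands for it.

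Max, the obligate partner of Myc, was also higher in the R150C line, by far less than Myc. Its signal was 172.6 with PTHrP and 228.9 in control medium in R150C cells, against 117.2 and 140.1 in WT cells. Both R150C arrays were above both WT arrays. The signal ratio of R150C to WT cells was 1.47 under PTHrP and 1.63 in control medium, and the log2 differences were 0.48 and 0.62. Both exceed the 0.25 spread, and both lie inside the central 90% of all genes (-0.59 to 0.66 under PTHrP, -0.61 to 0.66 in control medium). Max too has 1 probe set.

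Mlx, the Max-like partner, had 161.2 and 131.3 in R150C cells, against 122.1 and 105.7 in WT cells (PTHrP and control). Its differences of 0.34 under PTHrP and 0.24 in control medium were close to the spread of a pair of arrays. A second Mlx probe set, below the filter, had 64.9 and 50.2 in R150C cells, against 52.4 and 72.9 in WT cells, and its differences of 0.22 and -0.46 went opposite ways, so the probe sets of Mlx disagree in control medium.

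Among the antagonists, Mnt, Mxi1 and Mxd3 were lower in R150C cells in both media, and the probe sets that stand for them lay inside the central 90% of all genes. Mnt, a broadly expressed Max-binding repressor, had 138.8 and 109.0 in R150C cells, against 174.8 and 141.8 in WT cells (PTHrP and control), with differences of -0.32 and -0.37. Both R150C arrays were below both WT arrays. Its second probe set, below the filter, gave -0.35 and -0.72, the second of these past the central 90% of all genes.

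Mxi1, an antagonist that recruits Sin3, had 69.3 and 68.9 in R150C cells, against 100.4 and 93.7 in WT cells. The signal ratio of R150C to WT cells was 0.69 under PTHrP and 0.735 in control medium, with log2 differences of -0.47 and -0.40. Its second probe set, below the filter, gave -0.35 and -0.58, so both probe sets were lower in R150C cells in both media.

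Mxd3, an antagonist known from dividing cells, had 68.9 and 77.2 in R150C cells, against 87.5 and 94.2 in WT cells, with differences of -0.31 and -0.27. Its second probe set had 47.5 and 54.7 in R150C cells, against 88.6 and 86.7 in WT cells, with differences of -0.74 and -0.57. Both R150C signals of this probe set lay below the filter, so its mean passed the filter through its WT signals alone. The third, below the filter, gave -1.36 and -0.46. Under PTHrP these 2 lay past the central 90% of all genes, and with the probe sets averaged Mxd3 was at -0.79. All 3 probe sets were lower in R150C cells in both media, but the size ranged widely between them. Mxd1, an antagonist linked with differentiation, was at 5.3 and 6.4 in R150C cells, against 7.2 and 7.8 in WT cells, which is too dim for a difference to be measured.

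Mxd4, another antagonist that recruits Sin3, gave unlike values in the 2 media. Its signal was 101.9 and 124.2 in R150C cells, against 188.8 and 117.1 in WT cells (PTHrP and control). The WT PTHrP array stood above the other 3, and the groups overlapped. The difference was -0.82 under PTHrP and 0.04 in control medium. A second Mxd4 probe set, above the filter, had 75.8 and 105.1 in R150C cells, against 102.5 and 68.9 in WT cells, with differences of -0.39 and 0.48. Both of these probe sets were lower in R150C cells under PTHrP and not in control medium. The other 2 probe sets of Mxd4 were below the filter, at 21.1 to 46.9 over all arrays. Their differences were -0.05 and -0.31, and -0.52 and -0.15, so both were lower in R150C cells in control medium too, unlike the brighter pair.

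**Figure D2:**
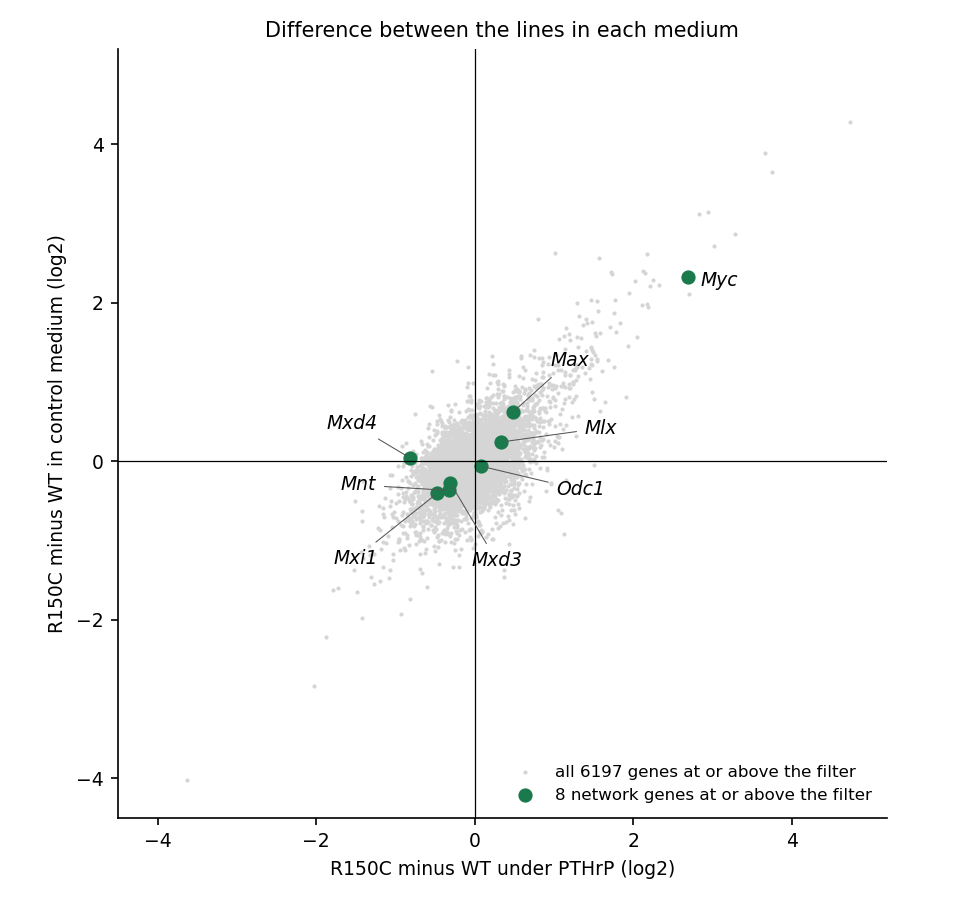
Difference between R150C and WT cells for the 8 members at or above the filter, log2(signal + 16), under PTHrP and in control medium. Grey points are all 6197 genes at or above the filter. Myc lies at 2.69 and 2.32, Max at 0.48 and 0.62, and Mnt, Mxi1 and Mxd3 lie between -0.47 and -0.27 in both media.

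Odc1, which encodes ornithine decarboxylase, the first enzyme of polyamine synthesis, differed little between the lines on the probe set that stands for it. Its signal was 2435.1 and 2427.4 in R150C cells, against 2259.7 and 2481.3 in WT cells (PTHrP and control), at the 98.3 to 98.6 percentile of probe set signals on each array. The groups overlapped, and the differences were 0.09 under PTHrP and -0.06 in control medium, both smaller than the 0.25 spread. The second probe set gave 0.29 and -0.01. The third had 440.3 and 365.7 in R150C cells, against 309.4 and 335.6 in WT cells, with differences of 0.47 and 0.09. All 3 probe sets were thus higher in R150C cells under PTHrP, by amounts that ranged widely, and lay near 0 in control medium. With probe sets averaged, Odc1 was at 0.29 under PTHrP, past the 0.25 spread.

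Read together, 3 of the 8 members above the filter were higher on both R150C arrays than on both WT arrays (Myc, Max and Mlx), 3 were lower on both (Mnt, Mxi1 and Mxd3), and 2 overlapped (Mxd4 and Odc1). Over all 6197 genes, 23.0% were higher on both R150C arrays and 33.2% were lower on both. At least 2-fold, 1 member (Myc) was higher in R150C cells in each medium and 0 were lower. The share of all genes at least 2-fold higher in R150C cells was 2.16% under PTHrP and 2.03% in control medium, and the share at least 2-fold lower was 0.726% and 0.968%. In control medium 126 genes were at least 2-fold higher and 60 lower, which became 178 and 35 with each array centred on all probe sets. The median difference of the 8 members was -0.11 under PTHrP and -0.01 in control medium, against -0.07 and -0.04 for all genes. Because Myc was known to differ when the set was drawn up, nothing is read from these counts.

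**Figure D3:**
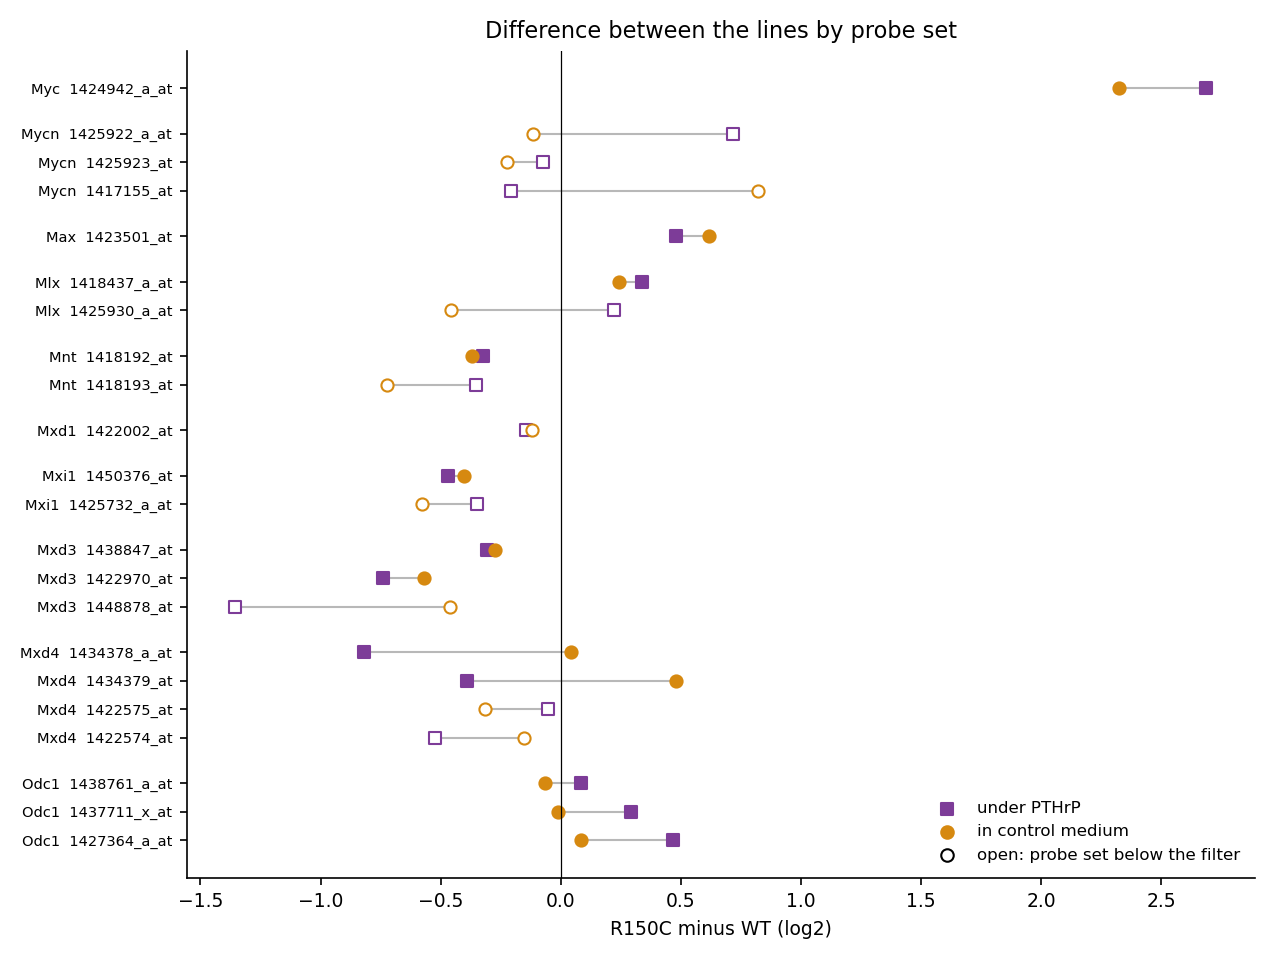
Difference between R150C and WT cells for each of the 22 probe sets of the members, under PTHrP and in control medium, on the log2(signal + 16) scale, with open symbols for probe sets below the filter. The probe sets of Mxd3 and of Mxi1 lie below 0 in both media, and those of Mlx and Mxd4 fall on both sides.

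No member passed the test for PTHrP at 1 h. In limma, with line and treatment as additive terms (1 residual degree of freedom) and Benjamini-Hochberg adjustment over all 6197 genes, 0 genes passed for PTHrP in either direction (0.0%), and 345 had an unadjusted p under 0.05. Among the 8 members the adjusted p lay between 0.896 and 0.991. Myc came nearest, with a difference of -0.35 over both lines (unadjusted p = 0.0489 and adjusted p = 0.896 in limma).

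Within each line, Myc was lower with PTHrP than without. In R150C cells it had 473.0 with PTHrP and 529.9 without, a signal ratio of 0.893 and a log2 difference of -0.17, less than the 0.25 spread. In WT cells it had 58.8 with PTHrP and 90.7 without, a ratio of 0.648 and a difference of -0.53. The WT value lies outside the central 90% of all genes for PTHrP in that line (-0.46 to 0.41), and the R150C value lies inside it (-0.35 to 0.38). Whether the lines differ in this response was not tested, since each group has 1 array.

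Max was lower with PTHrP in both lines, with differences of -0.39 in R150C cells and -0.25 in WT cells. Mnt (0.30 and 0.25) and Mlx (0.26 and 0.16) were higher with PTHrP in both lines, by about the spread of a pair of arrays or less. The second Mlx probe set disagreed in WT cells (0.28 and -0.40), and so did that of Mnt (0.32 and -0.05). Mxi1 (-0.00 and 0.07), Mxd3 (-0.14 and -0.11) and Odc1 (-0.00 and -0.15) differed by less than that spread in both lines on the probe sets that stand for them. The third Mxd3 probe set gave 0.84 with PTHrP in WT cells, and with probe sets averaged Mxd3 was at 0.31 there. The second Mxi1 probe set gave -0.30 in WT cells, and with centring on all probe sets Mxi1 was at 0.25 there.

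Mxd4 was lower with PTHrP in R150C cells (-0.26) and higher in WT cells (0.60). Its second probe set gave -0.41 and 0.46, and the remaining 2 gave 0.21 and -0.05, and -0.28 and 0.09. On the log2(signal + 16) scale it was the single member past 1.5-fold for PTHrP in either line, and it was no longer past it in WT cells with a pseudocount of 64 (0.47) or with probe sets averaged (0.34). The plain signal ratio of Myc in WT cells, 0.648, is also past 1.5-fold, as is its difference with a pseudocount of 1 (-0.64). In WT cells 1.39% of all genes were at least 1.5-fold higher and 2.34% at least 1.5-fold lower, and in R150C cells 1.19% were higher and 0.645% lower. The WT split of 86 higher and 145 lower became 349 and 50 with each array centred on all probe sets, and 133 and 97 after quantile normalization. The R150C split of 74 higher and 40 lower became 109 and 24 with centring on all probe sets.

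**Figure D4:**
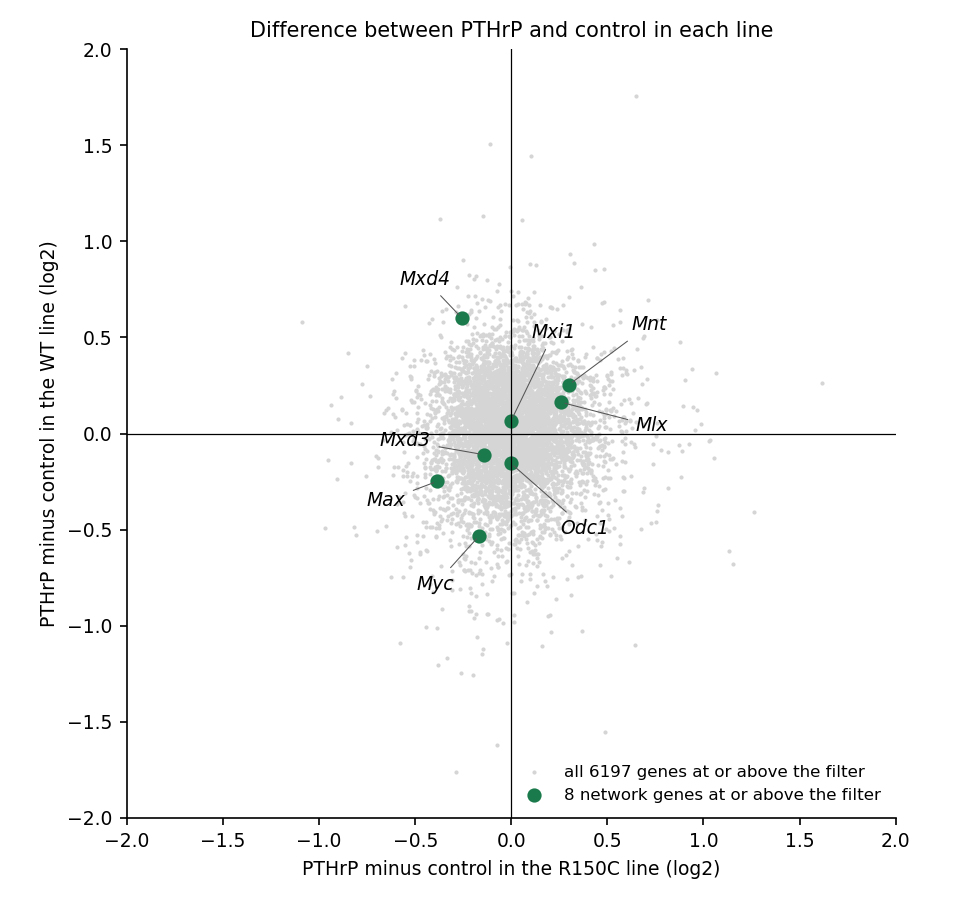
Difference between PTHrP and control for the 8 members at or above the filter, in R150C cells and in WT cells, log2(signal + 16). Grey points are all 6197 genes at or above the filter. Myc lies below 0 in both lines (-0.17 and -0.53), and Mxd4 lies at -0.26 in R150C cells and at 0.60 in WT cells.

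Genes around the network were tested between the lines with the same limma fit, as R150C minus WT over both media. Over all genes 5.52% were called higher in R150C cells and 4.18% lower at an adjusted p of 0.05. The lists are textbook ones, drawn up with the difference in Myc and in several of their genes known. With no filter on dim genes the same fit called 30 genes higher and 3 lower over the whole array, so every count below rests on the filter. No gene of any of these lists was called for PTHrP, where 0.0% of all genes were called.

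Polyamine metabolism around Odc1 was measured for 13 of 20 genes, and 0 of the 9 above the filter were called. Over all genes 5.52% were called higher and 4.18% lower. Srm, spermidine synthase, had 1012.2 and 1104.7 in R150C cells, against 920.8 and 886.3 in WT cells (PTHrP and control), a difference of 0.20. Sat1, which acetylates polyamines for export, had 704.7 and 790.5 in R150C cells, against 674.6 and 640.0 in WT cells, a difference of 0.15. Neither was called.

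Among proteins that control Odc1, Azin1, the antizyme inhibitor that spares the enzyme from degradation, had 554.2 and 512.5 in R150C cells, against 345.9 and 415.1 in WT cells, a difference of 0.45 (limma adjusted p = 0.106). The antizymes Oaz1 and Oaz2, which send the enzyme to the proteasome, differed by -0.28 and -0.20. Mtap, which salvages the by-product of spermidine and spermine synthesis, had 861.0 and 929.5 in R150C cells, against 1072.3 and 1369.0 in WT cells, a difference of -0.46 (limma adjusted p = 0.0886). For eIF5A, the protein that carries the modified residue hypusine, Eif5a differed by -0.11, and the hypusine enzymes Dhps and Dohh by 0.02 and -0.36. Smox, Arg1, Arg2 and Agmat had means below the filter, with no signal above 69.2 on any array.

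Of genes known to be activated by Myc, 46 of the 49 measured were above the filter. Of these, 3 were called higher in R150C cells, 1 was called lower and 42 were not called, against 5.52% higher and 4.18% lower over all genes. The list's median difference was -0.03, against -0.06 for all genes, and lay on either side of 0 under the alternatives (-0.06 to 0.05). In all, 21 genes of the list lay above 0 and 25 below. Rrs1, a ribosome assembly factor, had 769.8 and 689.3 in R150C cells, against 439.0 and 400.2 in WT cells, and rose by 0.75 (limma adjusted p = 0.00913). Wdr43, which acts in the processing of ribosomal RNA, and Gnl3 (nucleostemin) were higher by 0.69 (adjusted p = 0.015) and 0.53 (adjusted p = 0.0462). Prmt1, the main arginine methyltransferase of the cell, had 284.3 and 237.4 in R150C cells, against 605.1 and 624.1 in WT cells, and fell by 1.22 on the log2 scale (adjusted p = 0.000578).

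Genes known to be repressed by Myc were measured for all 23 of the list, and 19 were above the filter. Of these, 8 were called lower in R150C cells, 3 were called higher and 8 were not called, against 4.18% lower and 5.52% higher over all genes. The list's median difference was -0.43, against -0.06 for all genes, and stayed between -0.43 and -0.31 under the alternatives. Gas1, a growth arrest gene and hedgehog co-receptor, was at 197.6 and 136.1 in R150C cells, against 2595.6 and 2394.3 in WT cells, and differed by -3.83 (limma adjusted p = 1.78e-07). Cdkn1b, the cell cycle inhibitor p27, was at 69.6 and 65.5 in R150C cells, against 140.6 and 154.2 in WT cells, and differed by -0.99 (adjusted p = 0.002). Cdkn2c, the inhibitor p18, was at 399.9 and 406.4 in R150C cells, against 674.0 and 646.6 in WT cells, and differed by -0.72 (adjusted p = 0.0117).

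The other genes of this list called lower included Sesn2, a stress response gene, at -1.29, Cebpd, a C/EBP transcription factor, at -0.86 and Ndrg1 at -0.63. For Sesn2 the R150C array with PTHrP lay below the filter and the R150C control array above it. Its place among the genes called lower thus rests largely on its WT signals. Cdkn1a (p21) and Cdkn2b (p15), 2 other inhibitors of the cell cycle, had differences of -0.43 and -0.65 and were not called (limma adjusted p = 0.123 and 0.0555); they were picked out after their values were seen. Thbs1, a matrix protein that inhibits vessel growth, went the other way, with 2290.9 and 2396.0 in R150C cells, against 711.5 and 1389.3 in WT cells, and rose by 1.20 (adjusted p = 0.00372). Btg2 (0.64) and Nfil3 (0.76) were also called higher, but both WT arrays of Nfil3 (42.9 and 50.4) lay below the filter, so that it was kept through its R150C signals alone. Without it, 2 genes of the list were called higher. The differences of Gas1, Sesn2, Ndrg1 and Thbs1 were known when the list was drawn up, so its count is not independent evidence of a direction.

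Of cofactors of Myc and Mxd proteins, 19 of the 23 measured were above the filter, and 1 was called in each direction. The shares called over all genes were 5.52% higher and 4.18% lower. Mlxip, the partner through which Mlx senses glucose phosphate, had 156.2 and 124.6 in R150C cells, against 95.3 and 82.2 in WT cells, a rise of 0.55 (limma adjusted p = 0.0427). Sap30, a subunit of the Sin3 corepressor, had 74.6 and 75.4 in R150C cells, against 129.4 and 123.5 in WT cells, a difference of -0.67 (adjusted p = 0.016). The list's median was -0.02.

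Of regulators of Myc protein turnover, 13 of the 16 measured were above the filter, 1 was called higher and 0 lower, with a median of -0.03. The shares called over all genes were 5.52% higher and 4.18% lower. Pim1, a kinase that stabilises Myc, had 134.6 and 145.5 in R150C cells, against 57.7 and 9.6 in WT cells, a difference of 1.82 with an SE of 0.29. The WT arrays differed widely from each other in Pim1 and both lay below the filter, so the gene was kept through its R150C signals alone and its call is no support for a difference. Plk1, a mitotic kinase known to stabilise Myc, differed by -0.43 and was not called. Of proliferation markers, 14 of the 15 measured were above the filter. Of these, 0 were called higher and 1 lower, against the same shares over all genes. Mki67, the gene of the Ki-67 antigen, was called lower, with 403.7 and 376.9 in R150C cells, against 601.9 and 535.7 in WT cells (-0.55, adjusted p = 0.0407), and 13 were not called. Mcm2, a subunit of the replicative helicase, had the next largest difference, 0.40, and was not called. That value is the mean of 0.91 under PTHrP and -0.11 in control medium. The list's median was -0.17, with 3 genes above 0 and 11 below.

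**Figure D5:**
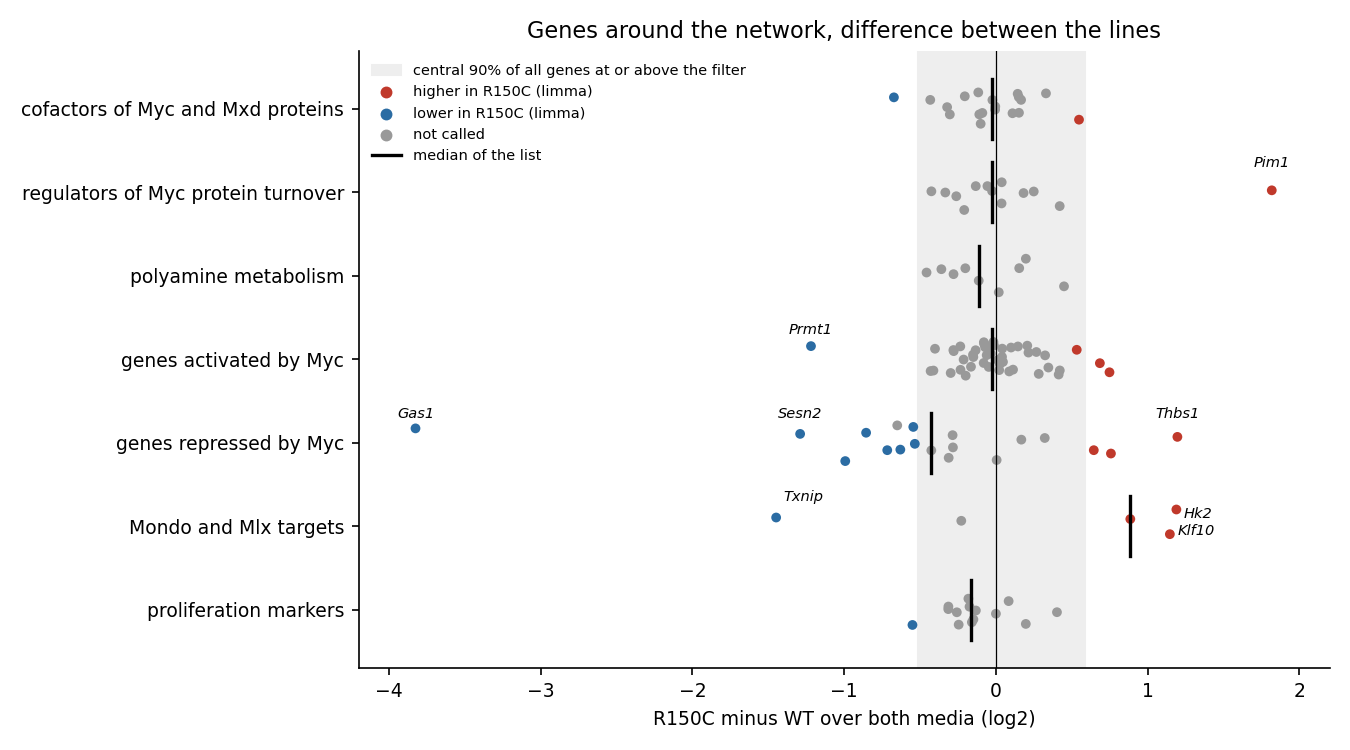
Difference between R150C and WT cells over both media, log2(signal + 16), for each gene at or above the filter in 7 lists around the network; red points were called higher and blue points lower by limma, black bars are list medians, and the grey band holds the central 90% of all genes. Genes activated by Myc centre at -0.03 and genes repressed by Myc at -0.43, with Gas1 at -3.83.

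The profile of Myc over the 4 arrays was shared with other genes that were high in R150C cells. Likeness was measured as the Euclidean distance between profiles, each with its own mean removed, over 4 arrays and among 654 genes that varied enough to be compared with Myc (SD over the arrays at least 0.25 of its SD). Vegfa, the vascular endothelial growth factor, was nearest at a distance of 0.05, with 555.5 and 598.1 in R150C cells, against 71.7 and 106.0 in WT cells. Smad7, an inhibitor of TGF-beta signalling, followed at 0.16, with 590.7 and 633.0 in R150C cells, against 75.8 and 130.9 in WT cells. Sema7a (0.28), Clcf1 (0.32) and Pvr (0.33) came next. Differences between the lines over both media were 2.27 to 2.67 for the 5, against 2.51 for Myc, and with 4 arrays the profile is mostly that difference. The 5 genes nearest to Odc1, among 6194 compared, were Urm1, Parl, Zfp131, Nosip and Lrpprc, at distances of 0.01 to 0.02, and they share a near flat profile.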

How the data were processed

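Per the labels' protocols, biotinylated cRNA was hybridised to 4 Affymetrix Mouse Genome 430A 2.0 arrays, 1 per group. The deposited values are linear signal intensity values per probe set, made by the authors in Affymetrix Expression Console, as the submitters' processing notes name it. Version and algorithm: not given in the sources used here. Detection calls were not used. Of 22690 probe sets, 64 controls were left out, and 20380 had 1 gene symbol in the platform annotation. The number of arrays limits the precision, and p-values rest on 1 residual degree of freedom with 9.68 prior degrees of freedom.

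The probe set with the highest mean log2(signal + 16) stood for each of 12393 genes, and the 6197 genes at or above the median were kept. Each array was centred on the median of these genes, because centring on all probe sets left them shifted by 0.22 between the WT arrays. The lines and treatments were compared with limma 3.58.1 in R 4.3.3 (additive model, eBayes, Benjamini-Hochberg adjustment). The fit was checked on simulated data with additive changes and equal noise in all genes. That check cannot show whether these assumptions hold for the real arrays. Members received no test between the lines. The members and lists were chosen with earlier results of these data known. The text names all members, up to 6 called genes per direction in each list (with fewer than 2 called, the 2 largest differences), all measured polyamine genes, and the 5 nearest profiles of Myc and Odc1.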

Additional observations from a re-analysis of the deposited data

Results flagged for a closer look

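The response of Mxd4 to PTHrP went opposite ways in the lines, lower by more than the 0.25 spread in R150C cells (-0.26) and higher in WT cells (0.60), a difference in response of -0.86 on the log2 scale. With 1 array per group this difference was not tested. Under the 8 alternatives the R150C value ranged from -0.29 to -0.18 and fell within that spread under 4 of them (centring on all probe sets, quantile normalization, a pseudocount of 64 and probe sets averaged), while the WT value ranged from 0.34 to 0.79. Of all 6197 genes, 231 (3.73%) also went opposite ways past that spread, and 131 (2.11%) had a difference in response at least as large as that of Mxd4. The second probe set of Mxd4 gave -0.41 in R150C cells and 0.46 in WT cells. The remaining ones, below the filter, gave 0.21 and -0.05, and -0.28 and 0.09, so the probe sets of Mxd4 disagree.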

How the results depend on the processing

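No paired analysis was possible because each group has 1 array, so no replicate numbers pair arrays beyond the line and treatment terms already in the model. For the same reason no replicate could be left out. Under 8 alternatives the difference of Myc between the lines stayed between 2.11 and 2.96 under PTHrP and between 1.91 and 2.50 in control medium, and that of Max between 0.37 and 0.53 and between 0.50 and 0.74. Mnt, Mxi1 and Mxd3 stayed below 0 in both media, with Mxd3 under PTHrP from -0.79 to -0.21. With PTHrP in WT cells, Max ranged from -0.28 to -0.06, Myc from -0.64 to -0.34, Mlx from -0.05 to 0.35, Mxd3 from -0.13 to 0.31 and Mxd4 from 0.34 to 0.79. Mlx in control medium ranged from -0.04 (mean of all probe sets) to 0.36, and Mxd4 under PTHrP from -0.91 to -0.44. Between the lines under PTHrP, Odc1 ranged from 0.08 to 0.29, the highest with probe sets averaged. No member was called for PTHrP, and the lowest adjusted p was 0.524 (Mnt, limma). The uncalled PTHrP difference over both lines changed sign for Odc1 (0.0456 with centring on all probe sets, 0.0449 with probe sets averaged), and with probe sets averaged for Mxi1 (-0.0398) and Mxd3 (0.0988). Centring on all probe sets called 22 genes higher and 3 lower for PTHrP in limma, and no centring called 1 higher. It also gave 35 genes at least 2-fold lower in R150C cells in control medium, 24 at least 1.5-fold lower with PTHrP in R150C cells, and 349 higher and 50 lower in WT cells, where quantile normalization gave 133 higher. A pseudocount of 1 gave 104 lower between the lines in control medium, and 115 higher and 77 lower with PTHrP in R150C cells. A pseudocount of 64 gave 21 lower between the lines in control medium, 89 higher and 20 lower under PTHrP, 33 higher and 13 lower with PTHrP in R150C cells, and 32 higher and 53 lower in WT cells. With no filter, limma called 30 genes higher and 3 lower between the lines, with 0 higher and 0 lower of the genes activated by Myc and 0 higher and 1 lower of those repressed; the fold counts were 205 higher and 162 lower in control medium, 239 and 137 under PTHrP, 317 and 552 with PTHrP in R150C cells, and 310 and 763 in WT cells. A filter at the 75 percentile left 158 called lower between the lines, 2 lower of the activated and 5 lower of the repressed genes, and fold counts of 79 higher and 19 lower, 76 and 18, 28 and 7, and 37 and 28 in the same order. The mean of all probe sets gave 5 repressed genes called lower and 42 genes at least 1.5-fold higher with PTHrP in R150C cells. The cause of these shifts was not tested. Signals below the filter limit what can be said of Mycn and Mxd1.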

Other observations

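Genes known to be driven by Mlx with its glucose-sensing partners were measured for 8 of 8, and 5 were above the filter, of which 3 were called higher in R150C cells and 1 lower by limma, against 5.52% and 4.18% of all genes. These calls too rest on the filter. Hk2, a hexokinase, had 472.5 and 458.1 in R150C cells, against 219.6 and 166.3 in WT cells (PTHrP and control), a difference of 1.19 (adjusted p = 0.000698). Slc2a1, the glucose transporter GLUT1, had 599.7 and 406.2 in R150C cells, against 265.7 and 244.7 in WT cells, a difference of 0.89 (adjusted p = 0.00619). Klf10, an early response gene of TGF-beta, had 293.8 and 233.1 in R150C cells, against 91.5 and 125.3 in WT cells, a difference of 1.15 (adjusted p = 0.00286).

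Txnip, an inhibitor of glucose uptake and the target most closely tied to Mlx and its partners, went the other way. It had 42.8 and 58.4 in R150C cells, against 150.8 and 172.4 in WT cells, a difference of -1.45. Both R150C arrays of Txnip lay below the filter, so the gene was kept through its WT signals alone and its call is no support for a difference. Its relative Arrdc4, below the filter and untested, had 43.5 and 39.1 in R150C cells, against 79.3 and 72.2 in WT cells. Without Txnip, 3 genes of the list were called higher and 0 lower, and Tkt (-0.23) was not called. The differences of Hk2, Slc2a1 and Txnip were known when the list was drawn up, so no direction is read from it. In the promoter windows Txnip held 2 matches to the CACGCG forms and Arrdc4 held 1 match to CACGTG.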
